A study of Mus musculus with 59 samples.

Results

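The DNA methylation and demethylation enzymes described here are the products of 8 genes: *Dnmt1*, *Uhrf1*, *Dnmt3a*, *Dnmt3b*, *Dnmt3l*, *Tet1*, *Tet2* and *Tet3*. The genes were chosen by name, with earlier results of these data known. All 8 are among the 24391 genes listed in the expression tables, none was at 0 in any of the 59 RNA-seq libraries, and all 8 passed the filter on low values. The libraries came from 6 conditional mouse embryonic stem cell (ESC) lines in which components of Polycomb repressive complex 1 (PRC1), a chromatin complex that ubiquitylates histone H2A, were deleted or mutated. The study asked how PRC1 acts when ESCs form embryoid bodies (EBs), and the question addressed here is how the mRNA levels of the DNA methylation enzymes moved with that step and with the mutations.

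Every line carried ERT2-Cre, a Cre recombinase that 4-hydroxytamoxifen (4-OHT) activates, and lines other than the point-mutant line are stated to come from blastocysts. In the *Pcgf1* line, control cells were Pcgf1f/f without 4-OHT (4 ESC and 5 EB libraries), and *Pcgf1*-KO cells were Pcgf1delta/delta with 4-OHT (5 ESC and 5 EB libraries). Both groups of the point-mutant line carried Ring1apm/pm, so that the controls too had mutated RING1A. Its controls, labelled Ring1b without 4-OHT, and its mutants, Ring1bpm/pm with 4-OHT, had 2 ESC and 2 EB libraries each. The remaining 4 lines had 8 libraries each: Ring1a-/- with Ring1bf/f or Ring1bdelta/delta (here also the controls lacked RING1A), and f/f or delta/delta alleles of *Pcgf2* and *Pcgf4*, of *Pcgf3* and *Pcgf5*, or of *Pcgf6*. ESCs grew with LIF, SU5402, PD184352 and CHIR99021 on mouse embryonic fibroblasts (MEFs), and EBs formed in 2 days on low attachment dishes without these factors. All mutant cells and no control cells received 4-OHT, so the effect of the mutation and that of 4-OHT cannot be told apart.

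Values are TPM, transcript levels scaled per length so that each library sums to 1000000. Read depth is unknown, and between 6039 and 9139 genes were at 0 per library. The *Pcgf1* mRNA stood at 7.30 to 16.6 TPM in the controls of its line and at 0.627 to 2.77 TPM in *Pcgf1*-KO libraries. A point mutation need not alter the mRNA level of *Rnf2*, which encodes RING1B. In the point-mutant line *Rnf2* had 66.6–85.8 TPM in control and 54.5–63.4 TPM in mutant ESCs. In EBs it had 67.0–72.8 TPM in control and 59.8–64.6 TPM in mutant libraries. Mutants were thus lower at both stages without overlap, but groups did not overlap for 45.4% of all genes in ESCs and 43.7% in EBs. In the *Pcgf1* line, 9 naive ESC markers had a summed level of 3365–5757 TPM in control ESCs against 384–723 TPM in control EBs, and 7 formative epiblast markers one of 39.9–83.2 against 460–1008 TPM. The 10 MEF markers had sums of 218–303 TPM in control and 167–245 TPM in *Pcgf1*-KO ESCs, but of 33.5–73.0 and 13.8–29.2 TPM in the EBs. They did not all move one way. By the test used below, 6 of the 10 fell and 2 rose from control ESCs to control EBs (13.4% and 11.5% of all genes). In *Pcgf1*-KO cells 6 fell and 0 rose (10.2% and 8.13% of all genes). The part that MEF RNA had in the ESC values was not tested, and in such bulk samples a change in the share of a cell type and a change in mRNA per cell cannot be told apart.

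DNA methylation at CpG sites is copied after replication by DNMT1, which UHRF1 brings to hemimethylated sites. DNMT3A and DNMT3B place methyl groups on unmethylated DNA, and DNMT3L, which has no catalytic activity of its own, stimulates them. TET1, TET2 and TET3 oxidise methylated cytosine, a step that leads to its loss. Naive ESCs kept with inhibitors of MEK and GSK3 are known for a genome with little methylation, which is gained as cells pass to the formative epiblast state.

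The promoter sequences of the genes on which the results turn are shown first, read from RefSeq (assembly GRCm38.p6) as the 250 bases before an annotated start. The table held 15 promoters of the 8 genes, since several genes have more than 1 annotated start. *Dnmt3b*, the gene with the widest range of levels, and *Dnmt3l*, its cofactor gene, differed in CpG content. A CpG-rich promoter was not particular to *Dnmt3b*. The promoters held 51 CpG in *Tet2*, 40, 38 and 15 in *Dnmt3a*, 30 and 10 in *Uhrf1*, and 26, 7 and 2 in *Dnmt1*. *Tet3* had 17 and *Tet1* 15, and the *Dnmt3l* promoters not shown had 4 and 3. The *Dnmt3b* promoter on the plus strand at chr2:153649199-153649448 held 21 CpG and the *Dnmt3l* promoter on the plus strand at chr10:78042037-78042286 held 5, against a median of 6 over 32851 promoters. Both are printed 5′ to 3′ with each CpG in capitals.
Dnmt3b: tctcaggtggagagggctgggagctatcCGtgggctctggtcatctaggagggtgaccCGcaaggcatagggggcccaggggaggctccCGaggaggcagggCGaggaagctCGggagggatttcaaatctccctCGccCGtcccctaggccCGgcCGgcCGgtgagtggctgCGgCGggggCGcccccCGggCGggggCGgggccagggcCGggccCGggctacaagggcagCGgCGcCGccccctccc
Dnmt3l: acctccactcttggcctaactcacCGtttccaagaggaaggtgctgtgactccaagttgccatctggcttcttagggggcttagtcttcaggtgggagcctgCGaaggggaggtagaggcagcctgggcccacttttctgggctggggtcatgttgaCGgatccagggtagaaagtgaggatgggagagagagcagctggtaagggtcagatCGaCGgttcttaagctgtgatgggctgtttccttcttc

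For the maintenance genes, a shorter stretch is shown because *Dnmt1* and *Uhrf1* shared a motif. The octamers TTTCGCGC, TTTGGCGC, TTTCCCGC and TTTGCCGC, forms of the binding site of E2F factors, which act on genes of DNA replication, were searched on both strands. They occurred in 1.86% of all promoters and in 2 of the 15 promoters of the 8 genes, each time in the form TTTCGCGC. In the *Dnmt1* promoter (minus strand, chr9:20952825-20952852) it began 219 bases before the start and read on the other strand. In the *Uhrf1* promoter (plus strand, chr17:56304118-56304145) it began 185 bases before the start. Both genes have other annotated starts, whose promoters held none of the octamers (chr9:20952980-20953229 and chr9:20959889-20960138 for *Dnmt1*, chr17:56303087-56303336 for *Uhrf1*). Each distance thus belongs to 1 of several starts, and which start these cells used was not tested. Capitals mark the octamer. A match in letters does not show that a factor binds.
Dnmt1: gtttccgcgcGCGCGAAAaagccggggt
Uhrf1: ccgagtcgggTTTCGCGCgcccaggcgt

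Of the 8 genes, *Dnmt3a* and *Dnmt3b* were the ones that rose in control EBs of both lines, and *Tet2* fell in the *Pcgf1* line. In the *Pcgf1* line, 3 of 8 genes passed an adjusted *p* of 0.05 between control EBs and control ESCs, where 24.9% of all genes did, and 4 of 8 did so between *Pcgf1*-KO EBs and *Pcgf1*-KO ESCs (18.3% of all genes). Between *Pcgf1*-KO and control cells, 0 of 8 genes passed in ESCs (0.641% of all genes) and 1, *Dnmt3l*, passed in EBs (1.95% of all genes). For the point-mutant line, 2 of 8 genes passed between control EBs and control ESCs (4.73% of all genes), 0 between mutant EBs and mutant ESCs (0.133%), 0 between mutant and control ESCs (2.54%) and 1, *Dnmt3a*, between mutant and control EBs (4.53%). Where so many genes passed, the counts for the EB step say little about the 8 genes as a group, and the sizes of their differences are given one by one. The median log2 difference of the 8 genes between control EBs and ESCs was -0.10 in the *Pcgf1* line and 0.05 in the point-mutant line. Libraries of the groups did not overlap for 3, 4, 2 and 1 of the 8 genes in the 4 comparisons of the *Pcgf1* line, in the order above (21.7%, 15.2%, 4.66% and 3.05% of all genes), and for 6, 2, 5 and 3 of 8 in those of the point-mutant line (46%, 39.5%, 45.4% and 43.7%). All these comparisons use groups of the same fit, and those that have a group in common share its libraries.

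With same-numbered libraries treated as pairs (the replicate block), 7 of 8 genes passed between control EBs and ESCs of the *Pcgf1* line (43.9% of all genes), 6 between *Pcgf1*-KO EBs and ESCs (36.8%), 1 between *Pcgf1*-KO and control ESCs (5.31%) 1 for the difference between the deletion effects in EBs and ESCs (1.62%) and 3 between *Pcgf1*-KO and control EBs (10.4%). Replicate 1, replicates 2 and 3, and replicates 4 and 5 came from 3 library series, and levels differed more between series than within them. Because of these differences, values within pairs are given beside the group values. Pairs from the same series may not be independent, while the block fit and the counts of pairs take each number as separate.

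**Figure D1:**
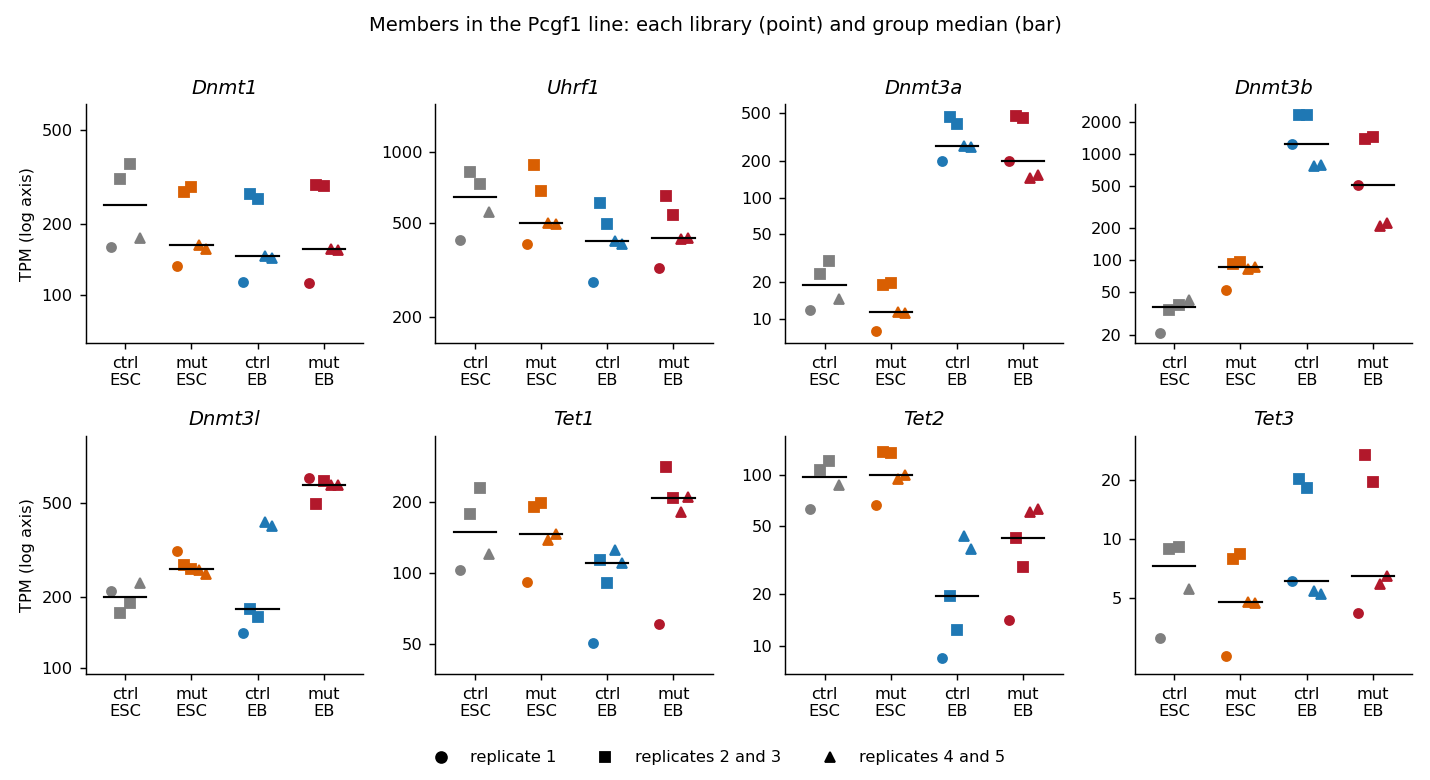
TPM (log axis) of the 8 genes in each of the 19 libraries of the *Pcgf1* line, by group, with marker shapes for the 3 library series and a line at the median (ctrl, control, and mut, *Pcgf1*-KO). *Dnmt3a* and *Dnmt3b* stand higher in all EB than in all ESC libraries, and *Dnmt3l* is higher in all 5 *Pcgf1*-KO EB libraries (497 to 643 TPM) than in all control EB libraries (142 to 416 TPM).

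By the median, *Uhrf1* was the most abundant of the 8 mRNAs in each ESC group of both lines and *Tet3* the least. In control ESCs of the *Pcgf1* line the order of the medians was *Uhrf1* (646 TPM), *Dnmt1* (241), *Dnmt3l* (201), *Tet1* (149), *Tet2* (97.2), *Dnmt3b* (36.1), *Dnmt3a* (19) and *Tet3* (7.23). Libraries of *Dnmt1* and *Dnmt3l*, of *Dnmt3l* and *Tet1*, of *Tet1* and *Tet2*, and of *Dnmt3b* and *Dnmt3a* overlapped, so these neighbours were not set apart. In control EBs *Dnmt3b* headed the order with a median of 1234 TPM and all 5 of its libraries lay above those of *Uhrf1* (median 423 TPM), while *Dnmt3a* (269), *Dnmt3l* (178) and *Dnmt1* (146) overlapped in turn. In *Pcgf1*-KO EBs *Dnmt3l* had the highest median (598 TPM) and its libraries overlapped those of *Dnmt3b* (507 TPM).

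The maintenance genes varied little between groups. *Dnmt1* (mm9 chr9:20711650-20757317, minus strand) had 159, 309, 357 and 173 TPM in control ESCs (replicates 1 to 4) and 113, 268, 254, 146 and 143 TPM in control EBs (replicates 1 to 5) of the *Pcgf1* line. The groups overlapped, and replicates 2 and 3 were the highest in each of them. The log2 difference was -0.43 ± 0.35 (SE, adjusted *p* = 0.42), but EBs were below ESCs by 1.15- to 1.42-fold in 4 of 4 pairs, and with the replicate block *Dnmt1* fell by 0.36 ± 0.07 (adjusted *p* = 0.000405).

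*Uhrf1* (mm9 chr17:56442744-56462909, plus strand) had 427, 829, 732 and 559 TPM in control ESCs and 282, 608, 498, 423 and 408 TPM in control EBs. The pattern over replicates was that of *Dnmt1*, and the groups overlapped. The log2 difference was -0.52 ± 0.27 (adjusted *p* = 0.181), EBs were below ESCs by 1.32- to 1.51-fold in 4 of 4 pairs, and with the replicate block *Uhrf1* fell by 0.49 ± 0.06 (adjusted *p* = 9.91e-06). In *Pcgf1*-KO cells *Uhrf1* stood 1.15- to 1.35-fold lower in EBs in 5 of 5 pairs (log2 difference -0.31 ± 0.25, adjusted *p* = 0.472, and 0.000407 with the block), whereas *Dnmt1* differed by -0.04 ± 0.33 (adjusted *p* = 1).

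Deletion of *Pcgf1* left libraries of both genes within or near the control ranges. *Dnmt1* had 133, 273, 285, 163 and 156 TPM in *Pcgf1*-KO ESCs, with 112, 293, 288, 156 and 154 TPM in *Pcgf1*-KO EBs. *Uhrf1* had 408, 881, 686, 504 and 498 TPM in *Pcgf1*-KO ESCs, with 325, 653, 542, 428 and 433 TPM in *Pcgf1*-KO EBs. *Pcgf1*-KO and control cells differed by -0.29 ± 0.35 in ESCs and 0.10 ± 0.33 in EBs for *Dnmt1*, and by -0.11 ± 0.27 and 0.11 ± 0.25 for *Uhrf1*, none of which passed the test.

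The maintenance genes spanned a narrow range in the point-mutant line. *Dnmt1* had 137 and 115 TPM in control ESCs, 115 and 111 in mutant ESCs, 109 and 110 in control EBs, and 83.6 and 115 in mutant EBs. *Uhrf1* had 294 and 247 TPM in control ESCs, 208 and 191 TPM in mutant ESCs, 195 and 194 TPM in control EBs, then 147 and 167 TPM in mutant EBs. Control ESC libraries were the highest for *Uhrf1* and mutant EB libraries the lowest, and no difference of either gene passed the test (adjusted *p* for *Uhrf1* 0.0934 between control EBs and ESCs, and 0.136 between mutant and control ESCs).

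*Dnmt3a* (mm9 chr12:3806007-3914443, plus strand), which encodes a de novo methyltransferase, rose from ESCs to EBs in control and in *Pcgf1*-KO cells. It had 11.8, 23.4, 30.2 and 14.5 TPM in control ESCs and 202, 463, 410, 269 and 265 TPM in control EBs. All EB libraries lay far above all ESC libraries, and the ratio of the means was 16.1. The log2 difference was 4.03 ± 0.40 (adjusted *p* = 1.07e-06), with 13.5- to 19.8-fold in 4 of 4 pairs.

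*Pcgf1*-KO ESCs had 7.90, 19, 19.8, 11.3 and 11.1 TPM of *Dnmt3a*, against 200, 474, 456, 146 and 155 TPM for *Pcgf1*-KO EBs. The rise was 4.26 ± 0.38 (adjusted *p* = 3.06e-07), and ESC and EB libraries again did not overlap. *Pcgf1*-KO and control cells differed by -0.52 ± 0.40 in ESCs (adjusted *p* = 0.838) and by -0.29 ± 0.38 in EBs (adjusted *p* = 0.892), with *Pcgf1*-KO ESCs lower in 4 of 4 pairs and *Pcgf1*-KO EBs lower in 3 of 5.

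Point-mutant cells carried *Dnmt3a* at lower EB levels than their controls. The gene had 25.7 and 18 TPM in control ESCs, 174 and 148 TPM in control EBs, 29.3 and 27.2 TPM in mutant ESCs, and 75.4 and 83.4 TPM in mutant EBs. Mutant EBs thus lay between the ESCs and the control EBs, with no overlap. The gene rose by 2.90 ± 0.19 in control EBs (adjusted *p* = 0.0012, 7.38-fold of the means) and was lower in mutant than in control EBs by -1.02 ± 0.19 (adjusted *p* = 0.0326, 2.03-fold of the means). The latter call was lost when only the EB groups were fitted (adjusted *p* = 0.0561) and without any single one of the 4 EB libraries (0.108 to 0.184). Mutant EBs and mutant ESCs differed by 1.49 ± 0.19 with an adjusted *p* of 0.0513. The gene model shares 2 exons on the opposite strand with *Gm10485*, which was not analysed here, and the gene-level values do not separate the isoforms of *Dnmt3a*.

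*Dnmt3b* (mm9 chr2:153475186-153513466, plus strand), the other de novo methyltransferase gene, whose CpG-rich promoter is printed above, showed the largest change of the 8 genes in control cells of the *Pcgf1* line. It had 20.9, 33.8, 38.3 and 42.1 TPM in control ESCs and 1234, 2344, 2313, 774 and 795 TPM in control EBs. The EB libraries were all higher, and those of replicates 4 and 5 were the lowest among them. The ratio of the means was 44.2, the log2 difference 5.34 ± 0.53 (adjusted *p* = 1.07e-06), and the pairs ranged from 18.4- to 69.2-fold.

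With *Pcgf1* deleted, *Dnmt3b* stood higher in ESCs and lower in EBs. *Pcgf1*-KO ESCs had 52.1, 92.2, 96.7, 83.3 and 86.7 TPM, all above the control ESC libraries, and *Pcgf1*-KO EBs had 507, 1371, 1447, 209 and 226 TPM, which overlapped the control EB libraries. Within pairs the *Pcgf1*-KO library was 1.98- to 2.72-fold higher in 4 of 4 ESC pairs and 1.60- to 3.71-fold lower in 5 of 5 EB pairs. Neither difference passed without pairing, at 1.30 ± 0.53 in ESCs (adjusted *p* = 0.44) and -1.29 ± 0.50 in EBs (adjusted *p* = 0.252). With the replicate block both passed, at 1.45 ± 0.40 (adjusted *p* = 0.0496) and -1.29 ± 0.37 (adjusted *p* = 0.0394), but with series means neither did (adjusted *p* = 0.281 in ESCs and 0.168 in EBs).

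The difference between the EB and the ESC effect of the deletion on *Dnmt3b* was -2.58 ± 0.72 (adjusted *p* = 0.39) without pairing, where 0.00486% of all genes passed, and -2.74 ± 0.55 (adjusted *p* = 0.024) with the replicate block. When the libraries of a series were averaged, which leaves 3 values per group, it was -2.53 with an adjusted *p* of 0.282. From *Pcgf1*-KO ESCs to *Pcgf1*-KO EBs, *Dnmt3b* rose by 2.76 ± 0.50 (adjusted *p* = 0.000592), with pairs from 2.51- to 15-fold.

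*Dnmt3b* also rose in controls of the point-mutant line. It had 77.2 and 33.9 TPM in control ESCs and 318 and 168 TPM in control EBs, a rise of 2.17 ± 0.41 (adjusted *p* = 0.0295) that did not pass without any single one of these 4 libraries (0.0604 to 0.17). Mutant ESCs had 78.4 and 67.2 TPM and mutant EBs 64.8 and 67.6 TPM, with a log2 difference of -0.13 ± 0.41 (adjusted *p* = 0.94). Mutant EB libraries lay below both control EB libraries by 3.67-fold of the means (-1.80 ± 0.41), which did not pass (adjusted *p* = 0.0525). The difference between the EB and ESC effect was -2.31 ± 0.57 for *Dnmt3b* (adjusted *p* = 0.48) and -1.41 ± 0.27 for *Dnmt3a* (adjusted *p* = 0.267), where 0.00986% of all genes passed.

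Since TPM are scaled per length, the levels of *Dnmt3b* and *Dnmt3a* can be set against each other within a library. The *Dnmt3b* to *Dnmt3a* ratio of TPM was 1.27–2.90 in control and 4.86–7.80 in *Pcgf1*-KO ESCs, and 2.88–6.11 in control and 1.43–3.17 in *Pcgf1*-KO EBs. In the point-mutant line it was 1.88–3.01 in control ESCs, 2.47–2.68 in mutant ESCs, 1.14–1.83 in control EBs and 0.811–0.859 in mutant EBs. *Dnmt3b* thus exceeded *Dnmt3a* in every library of both lines other than the 2 point-mutant EB libraries.

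**Figure D2:**
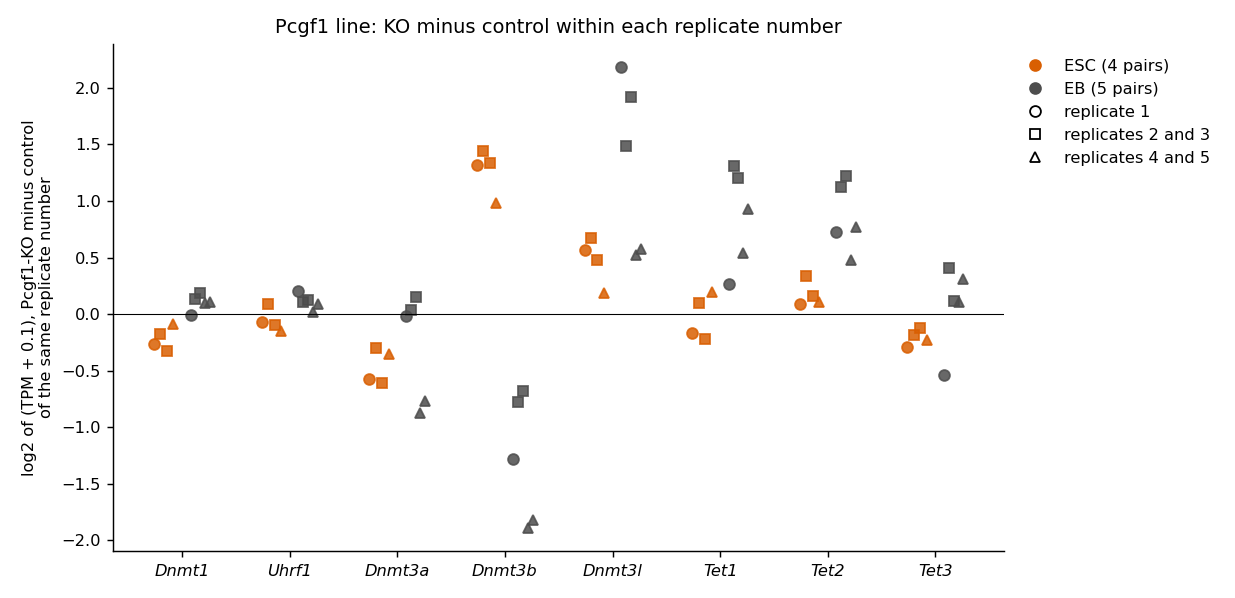
Difference in log2(TPM + 0.1) between *Pcgf1*-KO and control libraries of the same replicate number for each of the 8 genes, with 4 ESC and 5 EB pairs and marker shapes for the library series. *Dnmt3b* lies above 0 in all 4 ESC pairs and below 0 in all 5 EB pairs, whereas *Dnmt3l* lies above 0 in all 9 pairs.

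*Dnmt3l* (mm9 chr10:77504692-77526367, plus strand), the gene of the catalytically inactive cofactor, was the gene of the 8 that differed in *Pcgf1*-KO EBs without pairing. Control ESCs had 213, 172, 190 and 230 TPM and control EBs 142, 178, 164, 416 and 400 TPM. Control EB libraries of replicates 1 to 3 lay near the ESC libraries and those of replicates 4 and 5 above them, and the log2 difference was 0.22 ± 0.26 (adjusted *p* = 0.597). *Pcgf1*-KO EBs had 643, 497, 621, 598 and 598 TPM, all above the control EB libraries.

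The log2 difference of *Dnmt3l* between *Pcgf1*-KO and control EBs was 1.34 ± 0.25 (adjusted *p* = 0.00725). The pairs were 4.55-fold for replicate 1, 2.79- and 3.78-fold for replicates 2 and 3, and 1.44- and 1.49-fold for replicates 4 and 5. The call was lost when only the EB groups were fitted (adjusted *p* = 0.0911), without replicate 1 of every group (0.053), and without replicates 2 and 3 (0.132). *Pcgf1*-KO ESCs had 314, 275, 265, 261 and 250 TPM, higher than control ESCs in every library, with a log2 difference of 0.45 ± 0.26 that did not pass (adjusted *p* = 0.713). From *Pcgf1*-KO ESCs to EBs *Dnmt3l* rose by 1.11 ± 0.25 (adjusted *p* = 0.00336), and the pairs ranged from 1.81- to 2.39-fold. The difference between the deletion effects in EBs and ESCs did not pass (0.89 ± 0.36, adjusted *p* = 0.742).

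ESC and EB libraries of *Dnmt3l* overlapped in the point-mutant line. It had 214 and 88.1 TPM in control ESCs, 214 and 134 in mutant ESCs, 387 and 182 in control EBs, and 246 and 150 in mutant EBs, with replicate 1 the higher in each group. No difference passed the test without the replicate block. In mm9, 1 exon of *Aire* lies on the opposite strand within *Dnmt3l* and *Aire* had 3.56 to 120 TPM in the *Pcgf1* line. The strandedness of the libraries is not given in the sources used here, so reads of the shared stretch cannot be told apart.

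**Figure D3:**
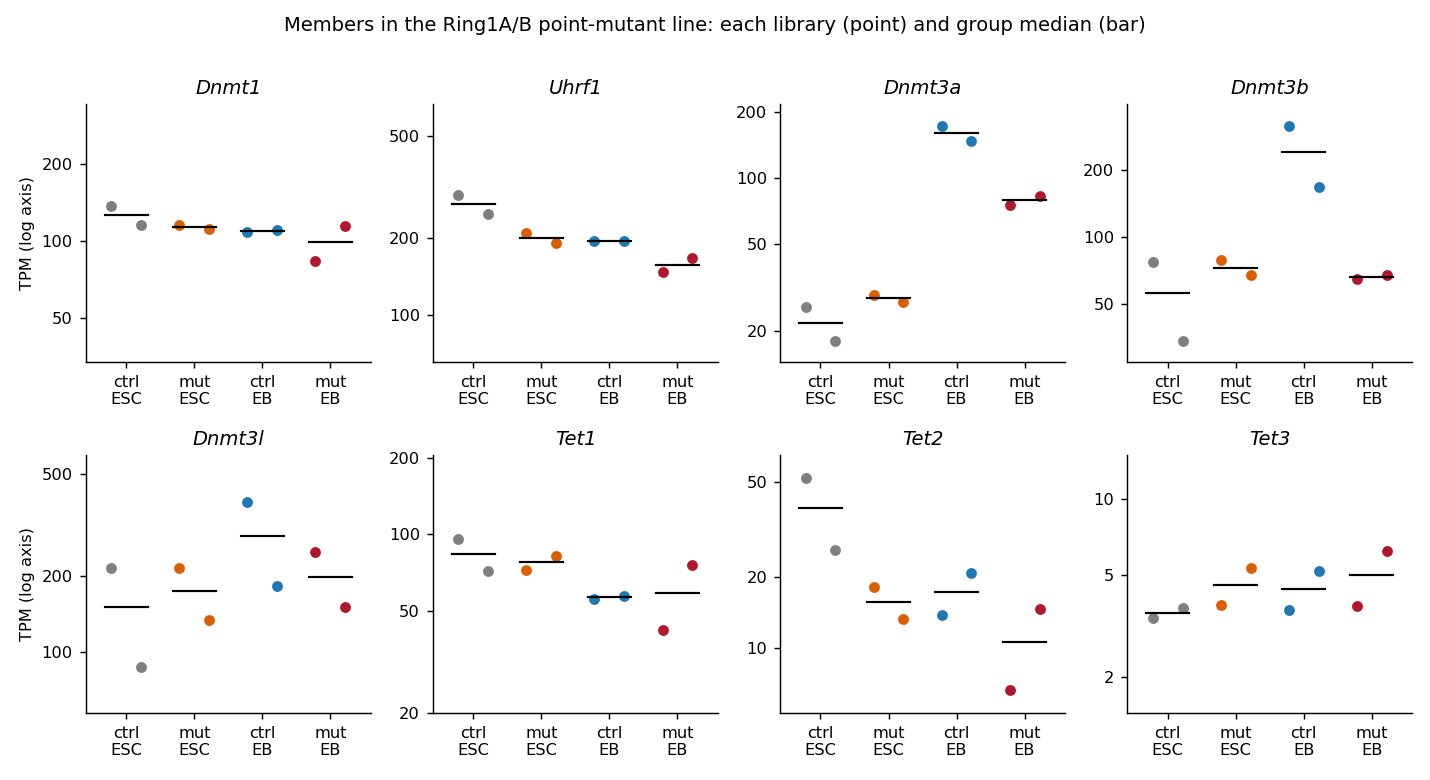
TPM (log axis) of the 8 genes in the 8 libraries of the point-mutant line, with 2 libraries per group and a line at their median. *Dnmt3a* is at 75.4 and 83.4 TPM in mutant EBs against 174 and 148 TPM in control EBs, and *Dnmt3b* at 64.8 and 67.6 against 318 and 168 TPM.

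Of the oxidation genes, *Tet2* fell and *Tet1* and *Tet3* did not pass the test from ESCs to EBs in the *Pcgf1* line. *Tet2* (mm9 chr3:133126643-133207354, minus strand) had 63.1, 107, 121 and 87.7 TPM in control ESCs and 8.48, 19.5, 12.3, 43.6 and 36.7 TPM in control EBs. All EB libraries were lower, by 3.92-fold of the means, and those of replicates 4 and 5 the least so. *Tet2* fell by 2.19 ± 0.46 on the log2 scale (adjusted *p* = 0.00178), and without replicates 2 and 3 the adjusted *p* was 0.169.

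*Pcgf1*-KO ESCs had 67.0, 135, 135, 94.3 and 99.6 TPM of *Tet2*, against 14.1, 42.5, 28.8, 60.7 and 62.7 TPM for *Pcgf1*-KO EBs. It fell by 1.49 ± 0.44 (adjusted *p* = 0.0226), a call that was lost without replicates 2 and 3 (adjusted *p* = 0.295) and without any of 4 single libraries, namely *Pcgf1*-KO EB replicate 1 (0.066) or 3 (0.0546) and *Pcgf1*-KO ESC replicate 2 (0.0552) or 3 (0.0541). *Pcgf1*-KO EBs were 1.39- to 2.35-fold above control EBs in 5 of 5 pairs, with a log2 difference of 0.86 ± 0.44 that did not pass (adjusted *p* = 0.466, and 0.0777 with the block).

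In the point-mutant line *Tet2* had 52.0 and 25.8 TPM in control ESCs, 18 and 13.3 in mutant ESCs, 13.7 and 20.7 in control EBs, and 6.61 and 14.6 in mutant EBs. Control ESC libraries were above all the others. The log2 difference was -1.11 ± 0.46 between control EBs and ESCs (adjusted *p* = 0.231) and -1.24 ± 0.46 between mutant and control ESCs (adjusted *p* = 0.223), neither of which passed.

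*Tet1* (mm9 chr10:62267318-62361866, minus strand), the most abundant *Tet* mRNA in every library, had 103, 177, 230 and 121 TPM in control ESCs and 50.5, 114, 90.7, 125 and 111 TPM in control EBs of the *Pcgf1* line. The groups overlapped, and the log2 difference of -0.68 ± 0.38 had an adjusted *p* of 0.224 without pairing and of 0.00848 with it (-0.73 ± 0.20), though replicate 4 was 1.03-fold higher in EBs. *Pcgf1*-KO EBs had 60.6, 281, 209, 181 and 211 TPM, and each was 1.2- to 2.47-fold above the control EB library of its number. That difference was 0.85 ± 0.36 (adjusted *p* = 0.332), and with the replicate block *Tet1* was higher by 0.85 ± 0.19 (adjusted *p* = 0.00944). *Tet1* also passed without the *Pcgf1*-KO EB library of replicate 1 (1.22, adjusted *p* = 0.0345).

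*Pcgf1*-KO ESCs had 91.7, 190, 197, 139 and 146 TPM of *Tet1*, which overlapped the control ESC libraries (log2 difference -0.03 ± 0.38, adjusted *p* = 1). In the point-mutant line *Tet1* had 96.1 and 71.7 TPM in control ESCs, 72.8 and 82.6 TPM in mutant ESCs, 55.8 and 57.5 TPM in control EBs, then 42.2 and 75.6 TPM in mutant EBs. Control EBs lay below control ESCs, and no difference passed the test.

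*Tet3* (mm9 chr6:83312367-83391672, minus strand) was the least abundant of the 8 mRNAs by the median of all libraries. It had 3.10, 8.91, 9.11 and 5.56 TPM in control ESCs, 2.52, 7.84, 8.34, 4.74 and 4.71 TPM in *Pcgf1*-KO ESCs, 6.08, 20.4, 18.2, 5.41 and 5.19 TPM in control EBs, and 4.15, 27, 19.7, 5.85 and 6.47 TPM in *Pcgf1*-KO EBs. Replicates 2 and 3 exceeded the others in each group. *Tet3* passed between EBs and ESCs with the replicate block, in control cells at 0.70 ± 0.24 (adjusted *p* = 0.0289, and 0.528 without it) and in *Pcgf1*-KO cells at 0.89 ± 0.22 (adjusted *p* = 0.0056, and 0.309 without it). With series means it passed in *Pcgf1*-KO cells (0.86, adjusted *p* = 0.0478) and not in control cells (0.66, adjusted *p* = 0.0995). In the point-mutant line it stayed between 3.40 and 6.26 TPM over all groups, and no difference passed the test.

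**Figure D4:**
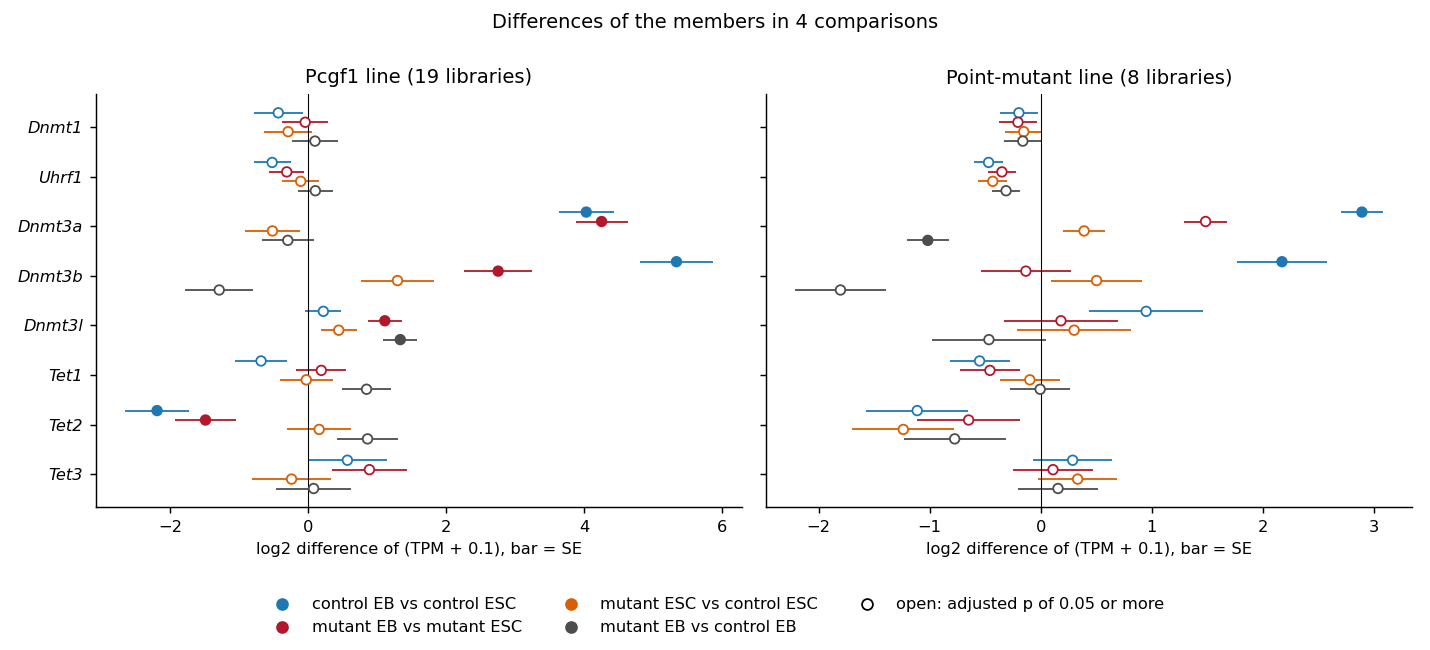
Log2 difference of (TPM + 0.1) with its SE for the 8 genes in 4 comparisons, in the *Pcgf1* line and in the point-mutant line. Filled points passed an adjusted *p* of 0.05, which in the left panel are *Dnmt3a*, *Dnmt3b* and *Tet2* between control EBs and ESCs, the same genes and *Dnmt3l* between *Pcgf1*-KO EBs and ESCs, and *Dnmt3l* between *Pcgf1*-KO and control EBs.

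Stage markers moved with these values and are given beside them. From ESCs to EBs, 9 of 9 naive markers fell and 7 of 7 formative markers rose in control cells of the *Pcgf1* line (13.4% and 11.5% of all genes), and 8 of 9 fell and 7 of 7 rose in its *Pcgf1*-KO cells (10.2% and 8.13%). Between *Pcgf1*-KO and control EBs, 2 of 9 naive markers were higher and 1 of 7 formative markers was lower (1.08% and 0.874% of all genes). The naive sum was 565–1444 TPM in *Pcgf1*-KO EBs, and their formative sum was 196–668 TPM against 460–1008 TPM in control EBs. Point-mutant EBs had 3 of 9 naive markers higher and 5 of 7 formative markers lower than control EBs (3.76% and 0.764% of all genes). Their naive sum was 1838–1934 TPM against 962–1211 TPM and their formative sum 108–155 TPM against 431–525 TPM. With only the EB groups fitted, these counts in the point-mutant line were 1 naive and 2 formative, where 169 of all 19600 genes passed. In the *Pcgf1* line they were 0 and 0 with only the EB groups fitted, where 68 of all 19622 genes passed. With the replicate block they were 6 and 3 there, where 2143 of all 20594 genes passed. The 3 markers shared by both states did not pass in any comparison, and of 7 primitive endoderm markers 3 were higher in *Pcgf1*-KO than in control EBs. In point-mutant cells 2 of these 7 were higher in ESCs and 2 in EBs, with sums of 26–27.3 TPM against 5.77–7.06 TPM in control ESCs and of 35.2–38.1 TPM against 14.6–19.7 TPM in control EBs. Feeder markers of that line summed to 21.8–23.6 TPM in control and 52.9–55.0 TPM in mutant ESCs, and to 33.3–49.4 TPM in control and 51.5–62.8 TPM in mutant EBs. The part of cell state or cell mixture in the *Dnmt3* values and in the germline values given below was not tested.

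Among 43 other genes that act on DNA methylation, 6 rose and 10 fell between control EBs and control ESCs of the *Pcgf1* line, against 11.5% and 13.4% of all genes. Those that rose most were *Cxxc4*, a CXXC-domain gene tied to TET2 (3.22 ± 0.61, at 0 to 0.0796 TPM in ESCs and 0.352 to 3.33 TPM in EBs), the stress gene *Gadd45g* (2.14 ± 0.36), *Mat2a*, which makes the methyl donor S-adenosylmethionine (1.26 ± 0.19), and *Mbd3*, of the NuRD complex (1.02 ± 0.23). Those that fell most were *Prdm14*, a repressor of de novo methyltransferase genes in naive cells (-3.27 ± 0.65), *Gadd45b* (-2.67 ± 0.70), the cytidine deaminase gene *Apobec1* (-1.51 ± 0.33) and *Idh2* (-0.96 ± 0.19). *Prdm14* stood between 19.6 and 23.4 TPM in control ESCs and between 0.219 and 5.87 TPM in control EBs, the opposite order to *Dnmt3b*. *Dppa3*, which hinders UHRF1 (-1.06 ± 0.62, adjusted *p* = 0.249), *Hells*, a remodeller needed for methylation (0.42 ± 0.19, adjusted *p* = 0.122), and *Tdg*, the glycosylase that removes oxidised bases (0.69 ± 0.84, adjusted *p* = 0.607), did not pass. With the replicate block 15 of the 43 rose and 14 fell, where 4255 and 4795 of all 20594 genes did, and without replicates 2 and 3 the counts were 9 and 2, where 1864 and 1916 of all 20390 genes passed.

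Between *Pcgf1*-KO EBs and *Pcgf1*-KO ESCs, 7 of the 43 genes rose and 5 fell (8.13% and 10.2% of all genes, and 16 and 12 with the replicate block, where 3453 and 4120 of all genes passed). *Gadd45g* (2.14 ± 0.34), *Cxxc4* (2.07 ± 0.58) and *Gadd45a* (0.98 ± 0.16) were among those that rose, and *Mbd2* (-0.76 ± 0.17), *Cxxc5* (-0.70 ± 0.18), *Neil1* (-0.68 ± 0.22) and *Smug1* (-0.64 ± 0.17) fell most. *Hells* was also higher (0.52 ± 0.18, adjusted *p* = 0.0487). *Prdm14* did not pass here (-1.20 ± 0.61, adjusted *p* = 0.206). Between *Pcgf1*-KO and control ESCs (0.32% of all genes in each direction), *Gadd45a* was higher (0.89 ± 0.17, adjusted *p* = 0.0211) and *Neil3*, a DNA glycosylase gene, lower (-1.25 ± 0.23, adjusted *p* = 0.0188), and neither passed when only these groups were fitted (93 of 19532 genes did). Between *Pcgf1*-KO and control EBs (1.08% of all genes higher and 0.874% lower) *Gadd45a* was higher (0.88 ± 0.16, adjusted *p* = 0.00613), and *Prdm14*, at 4.22 to 21.7 TPM in *Pcgf1*-KO EBs, was higher by 2.11 ± 0.61 with an adjusted *p* of 0.089, or of 0.0156 with the block.

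Few of the 43 genes passed in the point-mutant line. *Gadd45g* (3.80 ± 0.33) and *Gadd45a* (2.17 ± 0.15) rose from control ESCs to control EBs (2.73% of all genes rose and 2% fell), and *Gadd45a* rose in mutant cells (1.37 ± 0.15, where 0.0493% of all genes rose and 0.0838% fell) and was lower in mutant than in control EBs (-0.91 ± 0.15). *Prdm14*, *Dppa3*, *Cxxc4*, *Hells* and *Tdg* did not pass in any comparison of this line. When only the groups compared were fitted, 0 of the 43 genes passed between mutant and control cells at either stage, where 0 of all 19358 genes passed in ESCs and 169 of all 19600 in EBs. *Gadd45a* differed in opposite directions from control EBs in the mutants of the 2 lines, higher in *Pcgf1*-KO and lower in point-mutant EBs, and the difference between lines was not tested.

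Germline genes are known for promoters that DNA methylation silences, and 15 of them were followed at the mRNA level. A study that the authors cite ties PRC1 with PCGF6 to the regulation of germ cell-related genes. The parts that PRC1 itself and DNA methylation had in the values of these 15 genes were not tested. In point-mutant ESCs 9 of 15 were higher than in control ESCs and 0 lower (2.34% and 0.197% of all genes), with a median log2 difference of 1.93 against 0.12 over all genes. *Tex101* (3.06 ± 0.18), *Taf7l* (2.83 ± 0.20), *Mael* (2.68 ± 0.24) and *Sycp2* (2.5 ± 0.49), genes of spermatogenesis and meiosis, were the highest, and *Mael* went from 17–27.5 to 125–155 TPM. In point-mutant EBs 7 of 15 were higher and 0 lower (3.76% and 0.764% of all genes, median 1.38 against 0.10), led by *Tex101* (3.33 ± 0.18), *Taf7l* (2.54 ± 0.20), *Tdrkh* (2.04 ± 0.25) and *Slc25a31* (1.90 ± 0.39).

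These germline counts were 8 and 6 with median-of-ratios scaling and 6 and 6 with quantile normalization. They were 0 in ESCs and 5 in EBs when only the groups compared were fitted, where 0 of all 19358 genes and 169 of all 19600 passed. They were 2 to 3 in ESCs and 1 to 3 in EBs when a library was left out, where 30 to 52 and 33 to 130 of all genes passed. Between EBs and ESCs, *Mael* rose in point-mutant controls (1.62 ± 0.24), *Sycp2*, *Mael* and *Slc25a31* rose and *Brdt* and *Tuba3a* fell in controls of the *Pcgf1* line, and *Sycp2* and *Mael* rose in *Pcgf1*-KO cells. Between *Pcgf1*-KO and control cells 0 of 15 passed in ESCs and in EBs (with the replicate block 2 were lower in ESCs and 1 in EBs, where 572 and 1149 of all genes were lower), and the median log2 differences were -0.18 and -0.36. In point-mutant ESCs none of the 8 methylation enzyme genes passed the test, which with 2 libraries per group does not show equal levels. DNA methylation was not measured in these libraries.

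Scaling matters for direction in the point-mutant line. The median log2 difference over expressed genes between mutants and controls was 0.10 in ESCs and 0.08 in EBs as deposited, and -0.05 in both with median-of-ratios scaling. Between mutant and control EBs, 763 genes were higher and 155 lower as deposited, 634 and 295 with median-of-ratios scaling, and 481 and 299 with quantile normalization. In ESCs the split was 475 to 40 as deposited, 437 to 75 with median-of-ratios scaling and 167 to 40 with quantile normalization. The differences of *Dnmt3a* and *Dnmt3b* between mutant and control EBs were below 0 under each of these scalings.

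For each gene, the genes with the most similar pattern were found by the root mean square difference of centred mean log2(TPM + 0.1) over the 8 groups of both lines, among 13634 genes. *Dnmt3b* was most like *Sall2* (0.40), a formative epiblast marker, *Clca4a* (0.50) and *Pcdh1* (0.51). *Dnmt3a* was most like *Slc40a1* (0.25), *Cdk5r2* (0.28) and *Myrf* (0.35), and *Dnmt3l* was most like *Ocln* (0.26), *Nsmaf* (0.27) and *Ermp1* (0.27). The closest genes to *Tet2* were *Ttll6* (0.26), *Zfp36l1* (0.27) and *Lamc1* (0.32), to *Tet1* *Itsn2* (0.13), *Gm14393* (0.14) and *Lrrc8d* (0.15), and to *Tet3* *Rfx5* (0.09), *Jade3* (0.10) and *Fut11* (0.12). *Dnmt1* was close to *Kdm5c* (0.05), *Dcaf7* (0.05) and *Arid4a* (0.07), and *Uhrf1* to *Tmem131* (0.09), *Ankrd12* (0.11) and *Aars* (0.12). The root mean square of a gene's own centred values was 0.43 for *Dnmt1*, 0.47 for *Tet3* and 0.59 for *Tet1* and *Dnmt3l*. It was 0.72 for *Uhrf1*, 1.14 for *Tet2*, 1.69 for *Dnmt3a* and 1.73 for *Dnmt3b*. The small values for *Dnmt1* go with its narrow range, since a flat pattern is like many others. These patterns also hold the difference between the 2 lines. Group means of *Uhrf1* were 444 to 637 TPM in the *Pcgf1* line and 157 to 270 TPM in the point-mutant line.

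In the remaining 4 lines the condition in the label and that in the name of the deposited file differed for 21 of 32 libraries, so values are given with no test and no mean. Naive marker sums of all ESC libraries lay above those of all EB libraries in 0 of 4 lines by label and in 4 of 4 by file name. In the *Ring1A/B* line, libraries labelled control ESC had 25.4 and 25 TPM of *Dnmt3b*, those labelled mutant ESC 685 and 667, those labelled control EB 76.6 and 77.5, and those labelled mutant EB 273 and 270. By file name, the libraries at 685 and 667 TPM are control EBs and those at 76.6 and 77.5 TPM mutant ESCs.

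By label, ESC and EB libraries overlapped in all 4 lines for *Dnmt3a*, *Dnmt3b* and *Dnmt3l*. By file name, EB libraries were above ESC libraries in all 4 lines for the same 3 genes. *Dnmt3b* then ranged between 31.7 and 58.3 TPM in ESCs and between 194 and 582 TPM in EBs of the *Pcgf2/4*, *Pcgf3/5* and *Pcgf6* lines. *Dnmt3l* in the *Pcgf2/4* line was 233 to 268 TPM in ESCs and 738 to 766 TPM in EBs by file name, and *Tet2* in the *Pcgf6* line had 2.83 and 2.87 TPM in libraries named control EB, the lowest of all 59 libraries.

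By file name again, *Dnmt3b* in the *Ring1A/B* line was higher in mutant than control ESCs and lower in mutant than control EBs, the order seen within pairs of the *Pcgf1* line, and the *Dnmt3b* to *Dnmt3a* ratio was 1.47–1.5 in control ESCs, 2.90–2.94 in mutant ESCs, 3.34–3.38 in control EBs and 1.11–1.13 in mutant EBs. In the *Pcgf2/4*, *Pcgf3/5* and *Pcgf6* lines, libraries named mutant EB had more *Dnmt3b* than those named control EB, with 489 and 582 against 449 and 428 TPM, 489 and 394 against 291 and 275 TPM, and 300 and 407 against 194 and 244 TPM. In the *Pcgf6* line this order was not particular to *Dnmt3b*. Libraries named mutant EB were above those named control EB for each of the 8 genes, for example *Dnmt1* (86.0–123 against 32.4–43.1 TPM). Since label and name are at odds, which of these orders belongs to the mutations cannot be told apart from a mixed-up name or label.

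**Figure D5:**
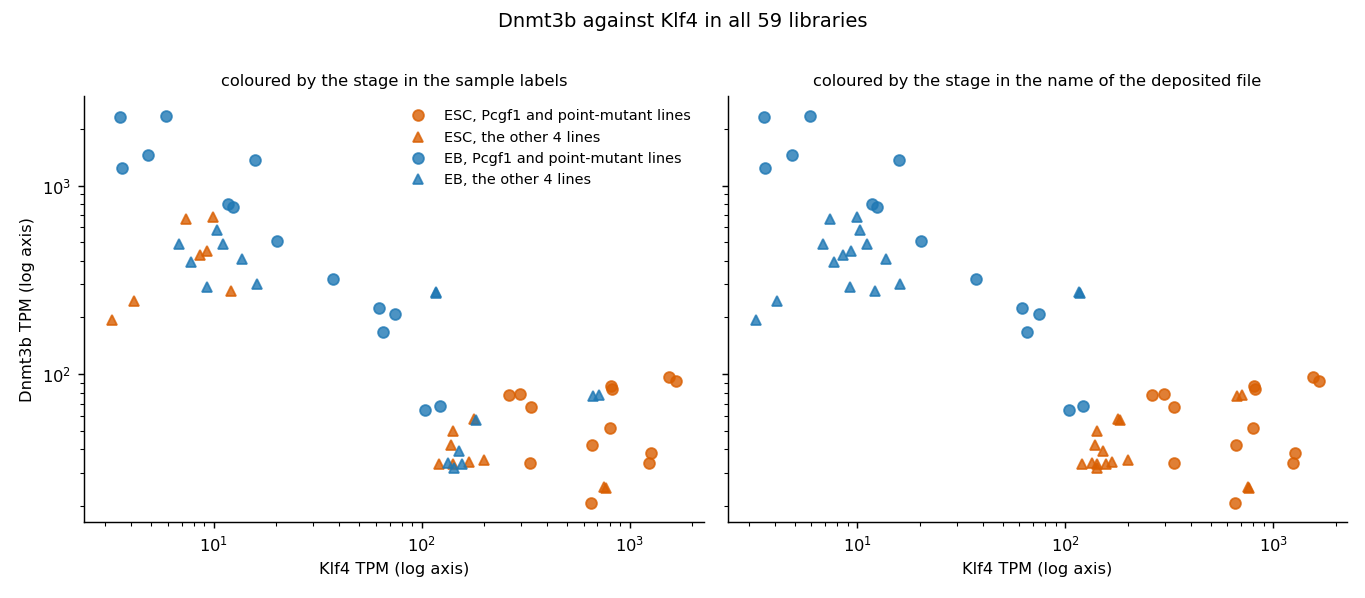
*Dnmt3b* against *Klf4*, a naive ESC marker gene, in TPM on log axes for all 59 libraries, coloured by the stage in the sample labels (left) and by the stage in the name of the deposited file (right). In the 4 lines tested nowhere above, ESC and EB points mix on the left and separate on the right.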

How the data were processed

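RNA-seq of 59 libraries from 6 conditional mouse ESC lines was used. Libraries of poly(A) RNA (NEBNext Ultra II) gave single-end reads that the authors aligned with STAR (version 2.5.2b) to mm9 and counted on exons, as their methods state. The authors deposited TPM. The step from counts to TPM and the strandedness are not given in the sources used here. The submitters' processing notes name DESeq2, which needs counts and was not used. Among 1711 pairs of libraries 0 were identical.

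The 4 groups of each line entered a single limma model (version 3.58.1, R version 4.3.3) of log2(TPM + 0.1) with a trended empirical Bayes variance, and genes at 0 throughout a line were dropped (leaving 20594 genes for *Pcgf1* and 20279 for the point mutant). Genes past a Benjamini-Hochberg adjusted *p* of 0.05 over all genes fitted were counted. Fold changes on this scale understate the change of low genes. Differences are log2 fold changes ± SE. Nothing in the labels says that libraries of a group came from separate cultures, so *p*-values measure the spread between libraries, which may be technical. Same-numbered libraries of the *Pcgf1* line were treated as pairs in the block fit: their deviations from the group means had an r of 0.317 to 0.653 in 27 of 27 pairs, over 13400 genes. Different-numbered libraries exceeded an r of 0.1 in 26 of 108 pairs (up to 0.621), and in 35 of 54 comparisons of a library with another group its own number was the best match. For a *Pcgf1*-KO EB library whose title (replicate 4) and characteristics (replicate 5) disagree, the title was used.

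The 8 genes, the 43 and 15 genes of the other lists, the 5 marker lists and the tests were chosen with earlier results of these data known. Values of each library are given for the 8 genes in the *Pcgf1* line and, other than for *Tet3*, in the point-mutant line. Only some values of the other 4 lines are given. Of the 43 genes, those passing with the 4 highest and 4 lowest differences and *Prdm14*, *Dppa3*, *Cxxc4*, *Hells* and *Tdg* are named, except for a result that is not reported here, and of the germline genes up to 4 examples. *Aire*, *Gm10485* and *Mael* as an example of levels were singled out after values were seen. The fit was tested on simulated data. Alternatives were a pseudocount of 1, a mean TPM of at least 1, no filter, quantile normalization, scaling by median of ratios, the replicate block, only the groups compared and leaving out each library. Averaging or leaving out a library series was added after the data were seen. Python (version 3.11.15) with pandas (version 2.3.3) and numpy (version 2.4.6) served for tables and matplotlib (version 3.10.9) for plots.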

Additional observations from a re-analysis of the deposited data

Results flagged for a closer look

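The effect of the mutation on *Dnmt3b* in the *Pcgf1* line was picked out because every pair moved one way in ESCs and the other way in EBs. The *Pcgf1*-KO library was higher in 4 of 4 ESC pairs and lower in 5 of 5 EB pairs. The EB effect minus the ESC effect was -2.58 ± 0.72 on the log2 scale (adjusted *p* = 0.39 by limma), and -2.74 ± 0.55 with the replicate block (adjusted *p* = 0.024).

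*Dnmt3a* in the point-mutant line was picked out for the same reason, with mutant ESC libraries (29.3 and 27.2 TPM) above control ESC libraries (25.7 and 18 TPM) and mutant EB libraries below control EB libraries. The difference of the effects was -1.41 ± 0.27 (adjusted *p* = 0.267 by limma, and 0.149 with the replicate block). In 32 combinations of gene and group with 4 or more libraries, no library stood apart from the others by Dixon's criterion. Chance alone exceeds it in about 1 of 20 groups of independent libraries. Here libraries of the same series were more alike than those of different series, so this rate need not hold and no conclusion is drawn.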

How the results depend on the processing

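Of 1352 values of the 8 genes under an alternative, 1305 kept their side of the threshold (66 of these changed sign without passing under either setting), 21 lost and 26 gained a call, and none that passed reversed. Counts of the 8 genes passing moved by over 1.5 times in 28 of 169 cases. In the *Pcgf1* line, the count of 3 between control EBs and ESCs became 7 with the replicate block and 6 with series means. The count of 0 between *Pcgf1*-KO and control ESCs became 1 with the block. The count of 1 between *Pcgf1*-KO and control EBs became 3 with the block, 0 with only the groups compared and 0 without replicates 2 and 3, and ranged from 1 to 2 when a library was left out (2 without *Pcgf1*-KO EB replicate 1, when *Tet1* passed at 1.22, adjusted *p* = 0.0345). The count of 0 for the difference of the effects became 1 with the block.

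In the point-mutant line, the count of 2 between control EBs and ESCs became 1 with no filter, 1 with only the groups compared and 1 without any single library. The count of 0 between mutant EBs and mutant ESCs became 1 with median-of-ratios scaling, 1 with a mean TPM of at least 1, 1 with quantile normalization and 1 with the replicate block, in each case *Dnmt3a*. The count of 1 between mutant and control EBs became 2 under those 4 settings (*Dnmt3b* joining), 0 with no filter, 0 with only the groups compared and 0 without any single library. The labels do not say what the replicate numbers of this line share, and with 2 numbers they were not taken as pairs. Same-numbered libraries had an r of 0.106 to 0.381 in 12 of 12 pairs. With 2 libraries per group, the 2 deviations from the group mean mirror each other, so each r occurs 2 times and the pairs are not independent. In 24 of 24 comparisons of a library with another group it correlated best with its own number. That count follows from the sign of r and adds nothing to it. In the block fit the count between control EBs and ESCs was 3, with *Dnmt3l* added (0.95, adjusted *p* = 0.0193).

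Over all genes, the counts passing ranged over the alternatives from 3780 to 9050 (5138 as reported) and from 38 to 2143 (402) for control EBs against ESCs and *Pcgf1*-KO against control EBs of the *Pcgf1* line, and from 12 to 1094 (132) for its ESCs. They ranged from 2646 to 7573 (3770) between *Pcgf1*-KO EBs and ESCs. In the point-mutant line they ranged from 156 to 2018 (960), 0 to 102 (27), 0 to 1326 (515) and 33 to 2056 (918), for control EBs against ESCs, mutant EBs against mutant ESCs, and mutants against controls in ESCs and in EBs. For the difference of the effects they ranged from 0 to 333 (1) in the *Pcgf1* line and from 0 to 92 (2) in the point-mutant line. The cause of these changes was not tested. With 2 libraries per group, and depth unknown, an uncalled difference in the point-mutant line does not show equal levels.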

Other observations

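Among levels not compared above, *Uhrf1* exceeded *Dnmt1* in all 59 libraries, with a ratio of TPM from 1.46 to 3.23, and *Tet1* exceeded *Tet2* in all 59 libraries, with a ratio from 1.35 to 7.50. The *Dnmt3b* to *Dnmt3a* ratio spanned 0.729 to 7.80 over the same libraries.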
